A study of Arabidopsis thaliana with 4 samples.

Results

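UDP-glycosyltransferases (UGTs) are the plant enzymes that join a sugar from a UDP-sugar to a small molecule. The family was followed in Arabidopsis roots that had grown near the root-colonizing fungus P. indica. The members are all genes with a probe set of their own on the ATH1 array whose symbol begins with UGT and a number, together with the UDP-glycosyltransferase genes AT2G22590 and AT2G16890, which the choice added by locus. This gave 49 of the 13350 genes that have such a probe set, 47 of them with a UGT symbol. A further 3 probe sets are shared between a UGT gene and other genes and were not used. The members with a UGT symbol fall into 11 numbered subfamilies, from UGT71 to UGT88. No symbol beginning with UGT75, UGT79, UGT83, UGT86 or UGT89 to UGT92 was paired with a probe set of its own in the annotation used, which gives AT2G22590 and AT2G16890 no subfamily number.

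The roots came from wild-type seedlings of the ecotype Columbia-0, so all groups share genotype and tissue and carry no transgene. Seedlings were placed on plates beside a plug of KM medium with P. indica hyphae, or beside a KM plug without hyphae (mock), at 3 cm from the nearest root. Root RNA was hybridized after 2 d, before the paper describes any contact between root and hyphae, and after 6 d, when it describes contact. Age is labelled as 12 d for the arrays taken at 2 d and 16 d for those taken at 6 d. The free text of the labels speaks of embryos, and the RNA isolation it describes covers roots and shoots. There are 4 arrays, 1 for each of mock at 2 d, P. indica at 2 d, mock at 6 d and P. indica at 6 d. Without replicates no difference below has an error or a p-value, and each is a difference between 2 arrays, not a tested difference between conditions. In such bulk RNA, fewer cells of a type and less RNA per cell cannot be told apart.

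Adding a sugar makes a small molecule more soluble, usually less active, and fit for storage in the vacuole. Members of the UGT family act on flavonols and anthocyanins, on the building blocks of lignin, on the hormones auxin, cytokinin and abscisic acid, and on salicylic acid and related defense molecules. Subfamily numbers follow protein sequence, so members with 1 number can act on quite different substrates.

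The values are MAS5 signals, a linear brightness for each probe set. Signals under a floor of 22.2 were set to the floor, and counting a gene at 2 d or 6 d required that mock or P. indica exceeded the floor there. Ratios are P. indica signals divided by mock signals of the same day, on the log2 scale unless called a fold. A signal is compared between arrays only, never between genes. Of the 49 members 31 were counted at 2 d, which is 63.3%, against 62.1% of all probe sets. At 6 d 31 were counted, against 61.7% of all. The number counted at both time points was 30, and 32 were counted at 1 or both.

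The other 17 members were under the floor on all 4 arrays, with signals up to 20.9. They are UGT71B5, UGT71B6, UGT71B8, UGT72B3, UGT73C1, UGT73C2, UGT73C7, UGT76E1, UGT76E2, UGT76E11, UGT76E12, UGT78D3, UGT84B1, UGT84B2, UGT85A3, UGT85A5 and UGT85A7. Among them are UGT84B1, which glucosylates the auxin indole-3-acetic acid, UGT71B6, which glucosylates abscisic acid, and UGT78D3, a flavonol arabinosyltransferase. For these genes the arrays give an upper bound only, and no ratio is reported.

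As a check of the tissue label, 2 of 10 root genes and 3 of 12 shoot genes on fixed marker lists had a probe set of their own. The root genes were PYK10, a root beta-glucosidase, and EXPA7, a root hair expansin. Their summed signal was 3300.6 and 3822.9 in mock and P. indica at 2 d, and 4014.1 and 4631.5 at 6 d. The shoot genes RCA, LHCB4.1 and PRK of photosynthesis summed to 402.8 and 293.5 at 2 d and to 509.6 and 739.2 at 6 d. Shoot markers were thus present on every array, lower with P. indica at 2 d and higher with it at 6 d. None of the 5 markers was at 0, although PRK, at 22.3 and 16.3 at 2 d, lay just above and then under the floor, and their part in the values below was not tested. The hybridization controls differed little within a pair, by medians of 0.07 at 2 d and 0.10 at 6 d, but between the mock arrays all 18 differed one way, with a median excess of 0.54 at 6 d.

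**Figure D1:**
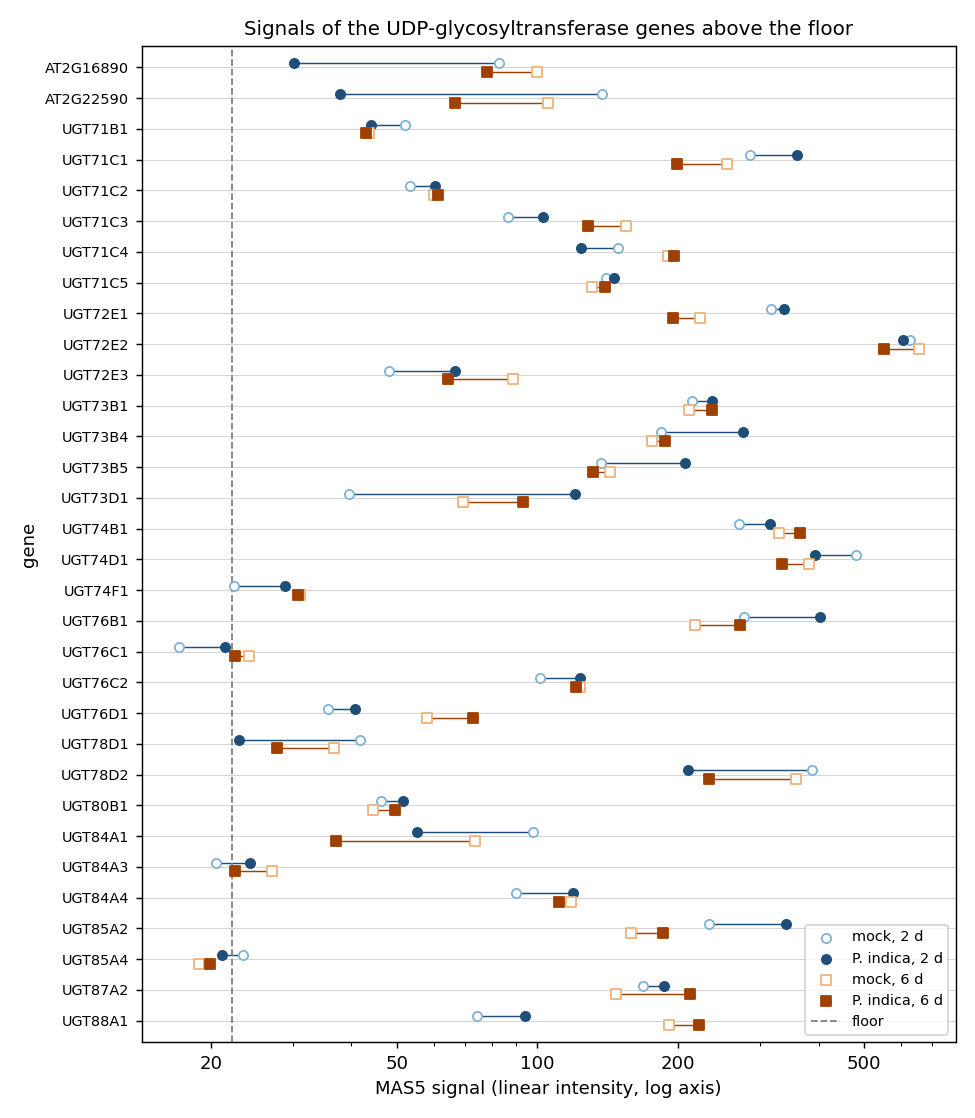
MAS5 signals (linear intensity on a log axis) of the 32 members counted at 1 or both time points, on each of the 4 arrays. Open symbols are mock and filled symbols P. indica, circles 2 d and squares 6 d, lines join the pair of a time point, and the dashed line is the floor of 22.2. The longest lines at 2 d belong to AT2G22590 and UGT73D1, which run in opposite directions.

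After 2 d the family divided. With P. indica, 21 of the 31 members counted were higher and 10 were lower, a share of 67.7% higher against 44.1% of all 14118 probe sets counted. The median ratio of the members was 0.16 and that of all probe sets −0.03. Most members, 24 of 31, lay within 1.5-fold, but of all probe sets only 2.77% were past this limit upward and 2.39% downward. Within 1.2-fold lay 13 of the 31, against 69.1% of all, so members lay within either limit less often than all probe sets. The quartiles of the members were −0.16 and 0.35 and those of all probe sets −0.20 and 0.13, so ratios of the family were spread more widely. With the floor lowered to 4.64, 23 members were higher and 18 lower. Past 1.5-fold, 5 members were lower and 2 higher, but 2 of the lower ones were added by locus with earlier results known. Among the 29 counted members with a UGT symbol, 3 were lower and 2 higher past this limit. The shares and quartiles above include both added genes, and without them 21 of 29 members were higher.

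More than 3-fold higher at 2 d was 1 member, UGT73D1, where 0.29% of all probe sets were this much higher. More than 3-fold lower was 1 member, AT2G22590, where 0.0567% of all were this much lower. At a limit of 1.5-fold, 2 members were higher, UGT73D1 and UGT73B5, which is 6.45% of the members counted against 2.77% of all. At the same limit 5 members were lower, AT2G22590, AT2G16890, UGT78D1, UGT78D2 and UGT84A1, which is 16.1% against 2.39% of all. AT2G22590 and AT2G16890 were added by locus with earlier results of these data known, AT2G22590 as strongly lower. They lend the count no independent weight. Without both genes added by locus, 3 of 29 members were more than 1.5-fold lower.

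After 6 d the differences were smaller. Of the 31 members counted, 13 were higher and 18 lower with P. indica, with 41.9% higher against 46.8% of all 14029 probe sets counted. The median was −0.03 and that of all −0.02, and the ratios ran from −0.99 to 0.53. No member was more than 3-fold higher, where 0.107% of all were, and none was more than 3-fold lower, where 0% of all were. No member was more than 1.5-fold higher, against 2.27% of all probe sets. More than 1.5-fold lower were 3 members, AT2G22590, UGT78D2 and UGT84A1, which is 9.68% against 1.35% of all. Without the genes added by locus, 2 of 29 members were this much lower. All 3 genes, AT2G22590 included, were also among the 5 that lay past 1.5-fold in the same direction at 2 d. As reported, UGT84A1 alone of these 3 had a ratio farther from 0 at 6 d than at 2 d, but under a higher floor of 61.4, the 60th percentile of the arrays, this order turned round.

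The members linked to flavonoids had lower signals with P. indica at both time points. Of 12 genes on this list, 4 had a probe set of their own and 3 were counted, UGT78D1, UGT78D2 and AT2G22590. Their median ratio was −0.88 at 2 d and −0.61 at 6 d. AT2G22590 has no symbol in the annotation used and stands on the list from background knowledge. It was chosen with its lower signal in these data already known, so it is not independent evidence of the direction. Without it the medians, over 2 genes, were −0.87 and −0.51.

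UGT78D2 (AT5G17050) is the flavonoid 3-O-glucosyltransferase, which makes flavonol and anthocyanin 3-O-glucosides. Its signals were 387.1 in mock and 210.5 in P. indica roots at 2 d, and 357.6 and 233.5 at 6 d. The signal was 1.84-fold lower in exposed roots at 2 d and 1.53-fold lower at 6 d. At 2 d this was the 71st lowest ratio of the 14118 probe sets counted. Few probe sets of this signal differ: of those whose dimmer array lay above 200, 2.41% were past 1.5-fold in either direction at 2 d.

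UGT78D1 (AT1G30530) is the flavonol 3-O-rhamnosyltransferase. It had signals of 41.8 and 23.0 at 2 d and of 36.8 and 27.8 at 6 d, in mock and P. indica. The signal was lower with P. indica by 1.82-fold at 2 d and 1.32-fold at 6 d. The P. indica array at 2 d was just above the floor, and of the probe sets whose dimmer signal lay between 22.2 and 50, 8.64% were past 1.5-fold. The log2 ratio at 2 d was −0.86, and with 32 added to the signals it was −0.42 and no longer past 1.5-fold, while with the higher floor the gene was not counted. UGT78D3, the next UGT78 gene, was under the floor on every array, so 2 of the 3 UGT78 genes were measured and both were lower.

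AT2G22590 had a signal of 137.8 in mock and 37.8 in P. indica roots at 2 d, and of 105.4 and 66.6 at 6 d. The exposed array at 2 d was the lowest of the 4. The signal was 3.65-fold lower at 2 d, the third lowest ratio among all probe sets counted, and 1.58-fold lower at 6 d. In P. indica roots it was 1.76-fold higher at 6 d than at 2 d, while in mock roots the ratio of 6 d over 2 d was −0.39.

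AT2G16890 is on no functional list and, like AT2G22590, was added by locus with earlier results known. It had a like pattern at 2 d, which is a description only. Its signals were 83.0 and 30.2 at 2 d and 100.1 and 78.2 at 6 d. Here too the exposed array at 2 d was the lowest, 2.75-fold under its mock, a log2 ratio of −1.46. This ratio was −0.89 with 32 added to the signals and −0.44 with the higher floor, where the gene was no longer past 1.5-fold. At 6 d the gene was 1.28-fold lower with P. indica.

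Few genes of flavonoid synthesis could be set beside these enzymes, since 3 of 15 on the list had a probe set of their own. CHIL, a chalcone isomerase-like protein that aids the first steps of the pathway, had signals of 678.0 and 443.8 at 2 d and 549.4 and 477.9 at 6 d. It was 1.53-fold lower with P. indica at 2 d and 1.15-fold lower at 6 d. DFR, the dihydroflavonol reductase of anthocyanin synthesis, was under the floor at 2 d, had a mock signal of 37.3 at 6 d and was 1.61-fold higher with P. indica there. BAN, an anthocyanidin reductase, was under the floor on all arrays. Only CHIL of these genes was counted at 2 d, and it was lower past 1.5-fold, as were 2.39% of all probe sets. At 6 d CHIL and DFR were counted, and DFR was higher past 1.5-fold, as were 2.27% of all. None of 25 genes listed for the supply of UDP-sugars had a probe set of its own.

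Of the shoot markers, RCA and LHCB4.1 had ratios of −0.40 and −0.52 at 2 d, and of 0.58 and 0.44 at 6 d. PRK, close to or under the floor at 2 d, had ratios of −0.01 and 0.82. The flavonoid-linked members were below 0 at both time points, and the part of shoot tissue in their ratios was not tested.

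The members linked to defense were on the other side at 2 d. Of 12 genes on the list 9 had a probe set of their own, and 7 were counted. All 7 were higher with P. indica at 2 d, against 67.7% of the 31 members counted and 44.1% of all probe sets counted. Their median was 0.54 and their range from 0.19 to 1.60, though 5 of them were within 1.5-fold. Ratios of like size occurred off the list, with 0.55 for UGT85A2 and 0.47 for UGT72E3, while the 10 lower members were all off the list. No ratio of this list overlapped those of the 3 flavonoid-linked members, but both lists were written with earlier results of these data known, so the separation is a description only. At 6 d 4 of the 7 were higher and 3 lower, or 5 and 2 after centring or loess, with a median of 0.10 and a range from −0.27 to 0.42. The root genes EXPA7 and PYK10 had ratios of 0.47 and 0.19 at 2 d and of 0.12 and 0.21 at 6 d, and their part in the defense-linked ratios was not tested. UGT73D1 stands on this list because the paper names it among its defense genes from the same experiment, so it is not independent evidence of the direction. Without it the medians were 0.45 and 0.04.

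UGT73D1 (AT3G53150) had the highest ratio of the family. Its signals were 39.6 in mock and 120.3 in P. indica roots at 2 d, and 69.5 and 93.1 at 6 d. The signal was higher with P. indica by 3.04-fold at 2 d and 1.34-fold at 6 d. The ratio at 2 d was the 39th highest of all probe sets counted. The mock array at 2 d was the lowest of the 4, and the mock signal was 1.76-fold higher at 6 d.

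UGT73B5 (AT2G15480) and UGT73B4 (AT2G15490) are neighbours on the chromosome, and UGT73B5 is required for full resistance to Pseudomonas syringae. UGT73B5 had signals of 136.6 and 206.9 at 2 d and of 142.9 and 131.6 at 6 d. UGT73B4 had signals of 184.3 and 275.9 at 2 d and of 176.0 and 188.1 at 6 d. For both genes the P. indica array at 2 d stood above the other 3, which lay close together. The difference at 2 d was 1.51-fold for UGT73B5, and UGT73B4 lay just under the limit of 1.5 with a ratio of 0.58. With 32 added to the signals the ratio of UGT73B5 at 2 d was 0.50 and no longer past 1.5-fold. The gene models of the pair overlap in the TAIR10.1 annotation. UGT73B1 (214.7, 236.4, 211.3 and 236.8, in the order mock and P. indica at 2 d, then at 6 d) differed little, and the median of the 4 UGT73 genes counted was 0.59 at 2 d and 0.13 at 6 d.

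UGT76B1 glucosylates salicylic acid, isoleucic acid and N-hydroxypipecolic acid, and so takes part in turning immune signals off. Its signals were 276.7 and 403.2 at 2 d and 217.3 and 272.0 at 6 d. They were higher with P. indica at both time points, by 1.46-fold and 1.25-fold. UGT76D1, which glycosylates dihydroxybenzoic acids derived from salicylic acid, had signals of 35.7 and 40.7 at 2 d and 58.0 and 73.0 at 6 d, with ratios of 0.19 and 0.33.

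UGT74F1, a salicylic acid glucosyltransferase, was close to the floor, with signals of 22.4 and 28.8 at 2 d and 31.0 and 30.8 at 6 d. UGT71C3, which glucosylates methyl salicylate, had signals of 86.5 and 102.9 at 2 d and 154.7 and 128.6 at 6 d. Its ratio was 0.25 at 2 d and −0.27 at 6 d, so the P. indica array was the brighter one at 2 d and the dimmer one at 6 d. UGT73C7 and UGT76E12, the remaining genes of the list with a probe set, were under the floor throughout. Of 11 genes listed for the synthesis of salicylic acid and N-hydroxypipecolic acid, 1 had a probe set of its own, AT5G52810, with ratios of −0.04 and −0.49.

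**Figure D2:**
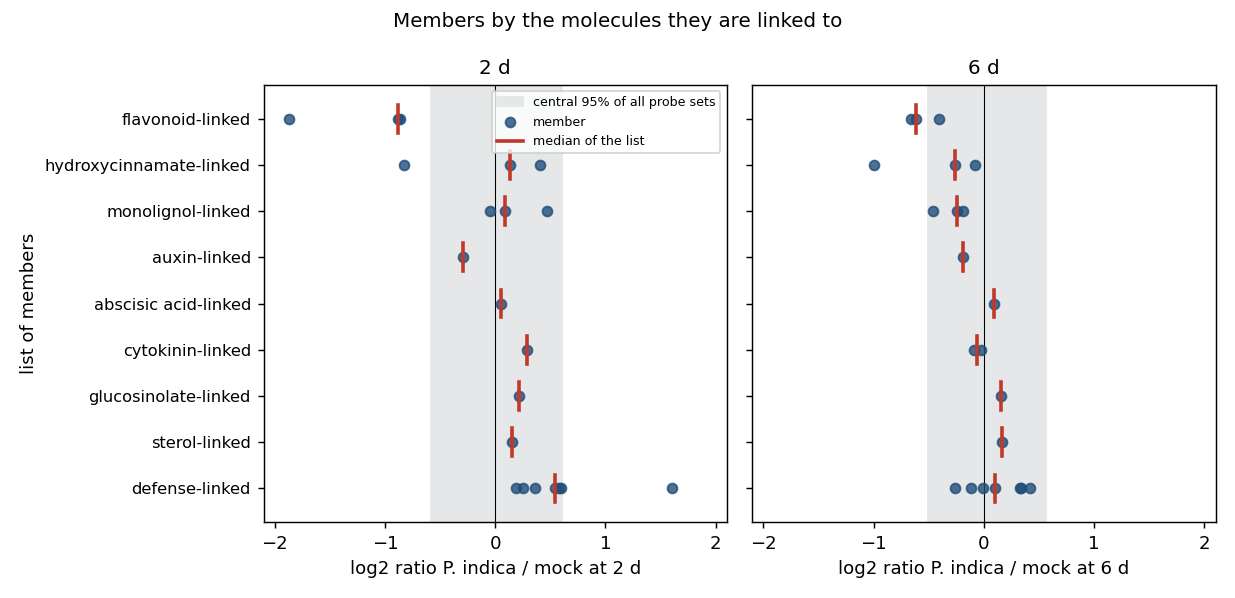
log2 ratio of P. indica over mock at 2 d (left) and 6 d (right) for the counted members of each functional list; points are genes, red bars list medians, and the grey band holds the central 95% of all probe sets counted. The flavonoid-linked genes lie left of the band at 2 d. The defense-linked genes lie right of 0 at 2 d, all but UGT73D1 inside the band, and on both sides of 0 at 6 d.

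Phenylpropanoid-linked members showed no common direction at 2 d. UGT84A1 (AT4G15480) forms glucose esters of hydroxycinnamic acids. It had signals of 97.8 and 55.2 at 2 d and of 73.7 and 37.0 at 6 d. Exposed roots were lower by 1.77-fold at 2 d and by 1.99-fold at 6 d, and at 6 d this was the 8th lowest ratio of the 14029 probe sets counted. Of the probe sets whose dimmer signal at 6 d lay between 22.2 and 50, as here, 6.97% were past 1.5-fold. The log2 ratio of −0.99 at 6 d was −0.62 with 32 added and −0.26 with the higher floor, where it was not past 1.5-fold, and at 2 d the ratio of −0.83 was −0.57 and −0.67. Its neighbours on the chromosome, UGT84A3 and UGT84A4, make esters of the same kind. UGT84A4 had signals of 90.2 and 119.5 at 2 d and 118.0 and 111.5 at 6 d. UGT84A3 was near the floor, with 20.5 and 24.3 at 2 d and 27 and 22.5 at 6 d. The 3 neighbours thus lay on both sides of 0 at 2 d, where UGT84A1 was lower and UGT84A4 had a ratio of 0.41, while at 6 d all 3 ratios were below 0. The medians of the hydroxycinnamate-linked list, 0.13 and −0.26, were UGT84A3's own ratios, and as its mock signal at 2 d was set to the floor, the 0.13 is a lower bound.

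The monolignol-linked members glucosylate coniferyl and sinapyl alcohol and related precursors of lignin. UGT72E2 had signals of 628.0 and 607.5 at 2 d and 654.5 and 553.4 at 6 d, and UGT72E1 had 316.1 and 336.9 at 2 d and 223.0 and 195.3 at 6 d. Both differed by less than 1.2-fold in each pair. UGT72E3 (AT5G26310) changed sides: its signals were 48.1 and 66.7 at 2 d, 1.39-fold higher with P. indica, and 88.8 and 64.3 at 6 d, 1.38-fold lower. Its 2 exposed arrays were close to each other, and the mock signal was 1.85-fold higher at 6 d than at 2 d. The medians of the list were 0.09 and −0.24, and UGT72B3, also on it, was under the floor.

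The ratios of the hormone-linked members counted ran from −0.29 (UGT74D1) to 0.28 (UGT76C2), both at 2 d. UGT74D1, which glucosylates auxins, had signals of 480.7 and 393.3 at 2 d and 381.5 and 333.4 at 6 d, with ratios of −0.29 and −0.19. UGT71C5, which forms the glucose ester of abscisic acid, had 140.5 and 145.6 at 2 d and 130.7 and 139.4 at 6 d, with ratios of 0.05 and 0.09. These were the only counted members of the auxin and abscisic acid lists.

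For cytokinins, UGT76C2, an N-glucosyltransferase, had signals of 101.2 and 123.3 at 2 d and 123.4 and 121.1 at 6 d. Its neighbour UGT76C1 was counted at 6 d only, with signals of 24.1 and 22.6. No member of the brassinosteroid list had a probe set of its own. UGT74B1, an enzyme of glucosinolate synthesis, had signals of 270.3 and 314.9 at 2 d and 328.5 and 364.8 at 6 d. The sterol glucosyltransferase gene UGT80B1 had signals of 46.3 and 51.6 at 2 d and 44.4 and 49.6 at 6 d. Both were within 1.2-fold at each time point.

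The remaining members are on no list, and only their signals and ratios are given. UGT71C1 had signals of 284.6 and 359.2 at 2 d and of 254.6 and 199.0 at 6 d. Like UGT72E3 it lay on opposite sides of its mock, 1.26-fold higher at 2 d and 1.28-fold lower at 6 d. UGT85A2 had 233.3 and 340.6 at 2 d and 158.8 and 185.6 at 6 d, with 1.46-fold and 1.17-fold higher signals with P. indica. UGT87A2, a gene linked to flowering time, had 168.1 and 186.4 at 2 d and 147.1 and 212.6 at 6 d. Its ratio of 0.53 was the highest of the family at 6 d, while it was 0.15 at 2 d.

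UGT88A1 differed more by time than by fungus, with signals of 74.3 and 94.2 at 2 d and 191.2 and 222.4 at 6 d. UGT71C4 was the only member lower at 2 d and higher at 6 d, by ratios of −0.27 and 0.04. UGT71B1, UGT71C2 and UGT85A4 had signals up to 61.3 and ratios between −0.24 and 0.17. UGT85A4 was not counted at 6 d.

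By subfamily, UGT73 had the highest median at 2 d (0.59, 4 genes counted) and UGT78 the lowest (−0.87, 2 genes counted). The medians of the other subfamilies with 2 or more genes counted lay between 0.09 and 0.28 at 2 d, in UGT71, UGT72, UGT74, UGT76, UGT84 and UGT85. At 6 d UGT78 was again the lowest (−0.51), UGT84 and UGT72 followed with −0.26 and −0.24, and UGT71 and UGT74 had medians of 0.00 and −0.01. Within UGT84 the ratios at 2 d ran from −0.83 to 0.41, so members of 1 subfamily lay on both sides of 0, and its median at 2 d is that of UGT84A3, bounded by the floor. With 1 to 6 genes counted in each subfamily, nothing particular to a subfamily can be read from these medians.

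Many members stand next to another member on the chromosome. The members formed 18 neighbour pairs, of which 14 were directly adjacent and the others had at most 2 genes between them. Both genes were counted at 2 d in 6 pairs, and in 3 of these both ratios had the same sign. In 6 pairs only 1 gene was counted. One such pair was UGT73D1 and UGT73C7, and of the adjacent genes UGT85A7, UGT85A2, UGT85A5 and UGT85A3 only UGT85A2 was above the floor.

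**Figure D3:**
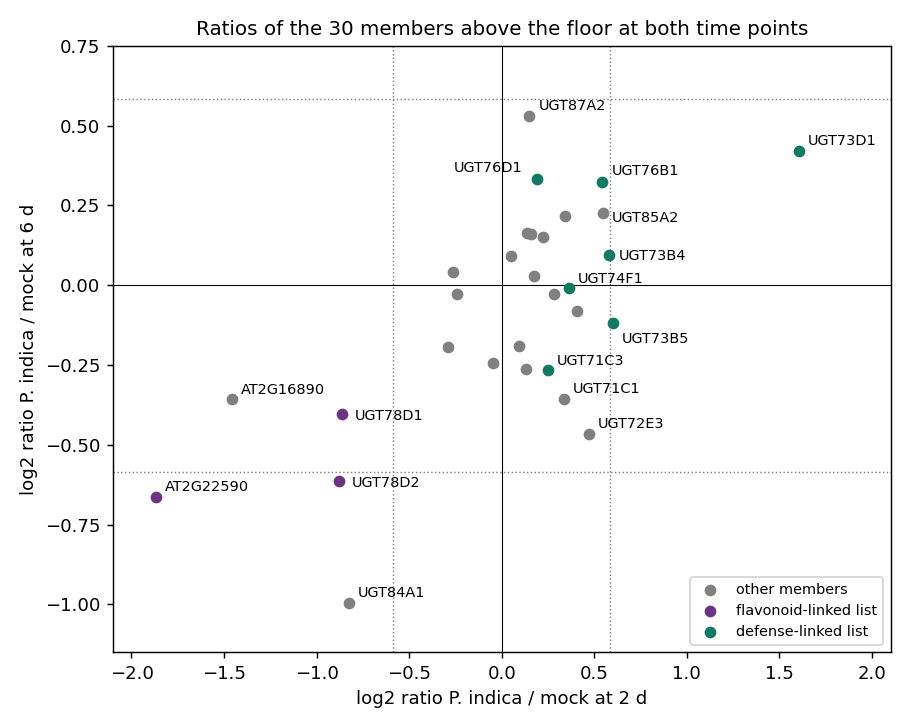
log2 ratio of P. indica over mock at 2 d (horizontal) against that at 6 d (vertical) for the 30 members counted at both time points, with flavonoid-linked and defense-linked genes coloured and dotted lines at 1.5-fold. AT2G22590, UGT78D2 and UGT84A1 lie past the limit on the lower side at both time points, and no gene does so on the upper side.

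Set side by side, the ratios of the 30 members counted at both time points had the same sign in 20. Of these 12 were higher and 8 lower both times, 9 were higher at 2 d and lower at 6 d, and 1 was the reverse. Across these 30 genes Pearson's r between the ratios was 0.66 and Spearman's rho 0.51, against 0.33 and 0.21 over all 13538 probe sets counted both times. Each ratio has its own mock array, genes are not independent replicates, and these values are a description only. The 30 members include AT2G22590 and AT2G16890, lower with P. indica at each time point and chosen with earlier results known. No value of this comparison is given without them. The ratio was farther from 0 at 2 d than at 6 d in 19 of the 30 members, or 63.3%, against 53.9% of all. The ratio at 6 d minus that at 2 d had a median of −0.16 over the members and 0.01 over all.

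The time points were also compared within a treatment, where age, time on the plate and array run cannot be told apart and the hybridization controls were brighter at 6 d. In mock roots 5 of 32 members were more than 1.5-fold higher at 6 d than at 2 d, or 15.6%, against 6.73% of all probe sets, and none was lower, against 8.46% of all. They were UGT88A1 (2.57-fold), UGT72E3, UGT71C3, UGT73D1 and UGT76D1. In P. indica roots 5 of 31 were higher, against 9.62% of all. They were AT2G16890 (2.59-fold), UGT88A1 (2.36-fold), UGT76D1, AT2G22590 and UGT71C4. A further 4 were lower, against 9.93% of all, and these were UGT85A2 (1.84-fold), UGT71C1, UGT72E1 and UGT73B5. UGT88A1 and UGT76D1 were higher at 6 d in both treatments.

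The low side of several of these ratios was a dim signal, so the treatment of low signals set their size. With an offset of 32 instead of the floor, the ratio at 2 d was 1.09 for UGT73D1 and −1.28 for AT2G22590, and neither was then past 3-fold. With the floor of 61.4, they were 0.97 and −1.17. UGT78D2, above 200 on all arrays, stayed between −0.89 and −0.79 at 2 d under every alternative tried.

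**Figure D4:**
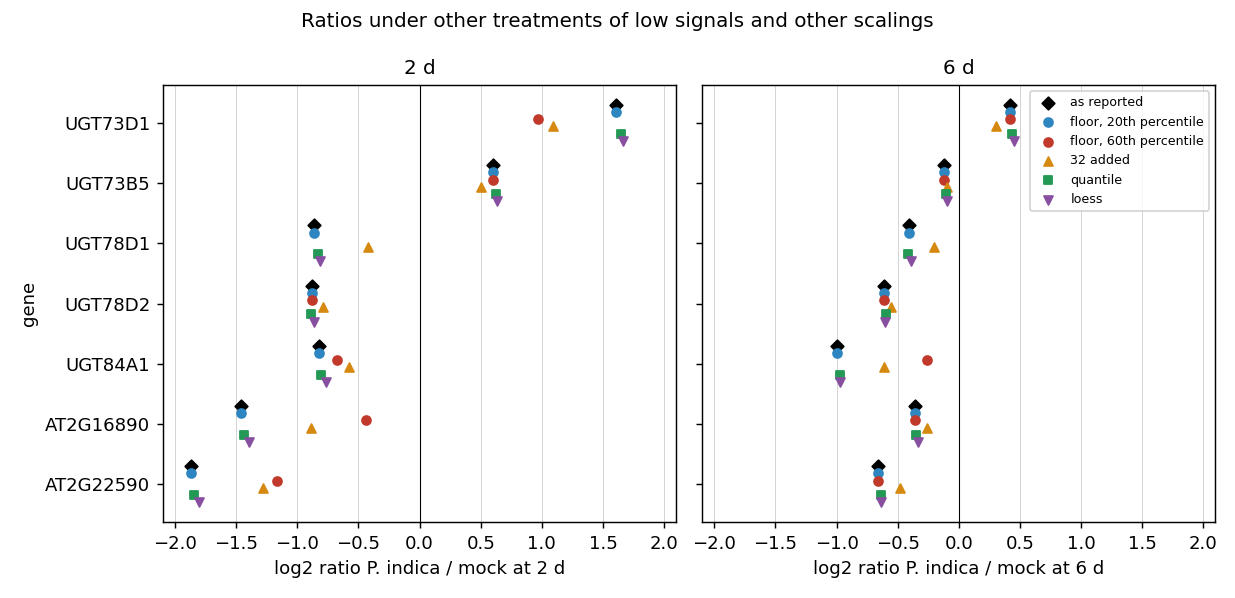
log2 ratio of P. indica over mock at 2 d (left) and 6 d (right) for the 7 members past 1.5-fold, as reported and under 5 alternatives of floor, added constant and scaling; a gene has no point where it was not counted. Scaling left the points nearly in place, while a higher floor or 32 added drew UGT73D1, AT2G22590, AT2G16890 and UGT84A1 toward 0. With 32 added UGT73B5 and UGT78D1 were also nearer 0, and UGT78D1 has no point at the higher floor.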

How the data were processed

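Root RNA was hybridized to 4 ATH1 arrays, 1 per condition. The authors deposited MAS5 signals (linear intensity) covering 22810 probe sets, with MAS5 taken from the submitters' processing notes and no version given there. The 75th percentiles of log2 signal lay within 0.03, so the deposited scale was kept. Of the probe sets 64 controls were left out. The sources used here do not say whether RNA or values of the paper's 3 independent experiments were pooled, and its t-test with false discovery rates could not be run with 1 array per condition. Precision is limited by the number of arrays.

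The platform annotation pairs 13513 probe sets with 1 gene, 503 with several and 8730 with none, and 13436 of the first kind were matched to a locus through Entrez identifiers in the TAIR10.1 table, which served for names and neighbour order only. All 49 member probe sets lack a cross-hybridization suffix. To set the floor, the 40th percentiles of the arrays were averaged as log2 values. Limits were 3-fold, after the paper, and 1.5-fold. Counting was tested on simulated arrays.

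The members, functional lists and pathway lists were chosen with earlier results of these data known. Signals on all arrays are given for members past 1.5-fold at either time point, for those whose 2 ratios lie on opposite sides of 0 by over 1.5-fold in all, and for up to 4 members of each functional list; signals of UGT73B1, UGT74F1, UGT76D1, UGT85A2, UGT87A2 and UGT88A1 are given outside this rule, after their values were seen. Alternatives were a lower floor (20th percentile), a higher one (60th percentile), quantile normalization, loess within each pair (span 0.3), centring on the median, 32 added to every signal, probe sets without a cross-hybridization suffix and, added after seeing the data, members with a UGT symbol only. Values were computed in Python 3.11.15 with pandas 2.3.3 and numpy 2.4.6, loess with statsmodels 0.14.6, trimmed means with scipy 1.17.1, and plots with matplotlib 3.10.9.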

Additional observations from a re-analysis of the deposited data

Results flagged for a closer look

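In 3 members the log2 ratio lay above 0 at 2 d and below 0 at 6 d and differed by more than 1.5-fold in all. The ratio at 6 d minus that at 2 d was −0.94 for UGT72E3, −0.72 for UGT73B5 and −0.69 for UGT71C1. With 1 array per condition the difference between the time points was not tested. In UGT72E3 the mock signal differed more between the time points (48.1 and 88.8) than the P. indica signal (66.7 and 64.3), while in UGT73B5 and UGT71C1 the P. indica signal differed more (206.9 and 131.6, and 359.2 and 199.0).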

How the results depend on the processing

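No count or median over the members and lists changed sign under the alternatives run, and 14 of 112 such values moved. Smaller changes are not among the 14. Quantile normalization, loess and centring each gave 3 members more than 1.5-fold higher at 2 d, with UGT73B4 then past the limit. The lower floor gave 3 members higher and 7 lower past 1.5-fold at 2 d. With 32 added to every signal, 0 members were past 3-fold in either direction at 2 d, 1 was past 1.5-fold on the higher and 3 on the lower side at 2 d, 1 was on the lower side at 6 d, and the flavonoid-linked median at 2 d was −0.79. A higher floor, at the 60th percentile (61.4), left 0 members past 3-fold in either direction at 2 d and 3 more than 1.5-fold lower, with a flavonoid-linked median of −1.02. A lower floor, at the 20th percentile (4.64), lets in signals near the background, and the defense-linked median at 2 d was 0.45 and 2 members were more than 1.5-fold higher at 6 d; 7 of 8 defense-linked members counted were then higher at 2 d. Among members with a UGT symbol only, an alternative added after seeing the data, 0 were more than 3-fold lower and 3 more than 1.5-fold lower at 2 d. Of 333 single-member ratios under alternatives 19 moved by more than the spread of the hybridization controls, 12 of them with 32 added, 6 with the higher floor and 1 with the lower floor; none reversed, and the 3 scalings moved none. No paired analysis was possible because each condition has 1 array, so that no comparison shares 2 replicate numbers; a fit that takes the days as replicates of the fungus was not run.

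The probe sets called past 1.5-fold at 2 d fell with signal, from 13.6% where the dimmer array was under the floor to 2.41% where it was above 200, and the dimmer array lay under 50 for UGT73D1, UGT78D1, AT2G22590 and AT2G16890.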
